A study of Mus musculus with 16 samples.

Results

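The glycolysis and hypoxia response genes described here are a set of 33 mouse genes named by symbol: glucose transporters, enzymes of glycolysis, and genes that respond to low oxygen. The rule for the set named known functions and no measured value, but the set was chosen with earlier results of these data known. All 33 symbols were found among the 32285 genes of each of the 8 expression matrices. They were followed in single cells from B16 melanoma tumours, by cell class, by mouse and by treatment. Aldoa has a second identifier of the same symbol, which held at most 1 UMI (unique molecular identifier, a count of 1 captured transcript) in any cell class and was left out. Reads of Gapdh, Aldoa and Eno1 can be shared with near-identical copies (pseudogenes, and Eno1b for Eno1), so their counts are uncertain to that extent.

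C57BL/6J mice received 1000000 Bro4.1 B16 melanoma cells under the skin, either control cells or cells lacking B2m (beta-2 microglobulin, a subunit of MHC class I). Every animal received 100 µg of antibody intraperitoneally at 3 times (days 6, 9 and 12), and the tumour was harvested on day 14. The antibody was a CD40 agonist (CD40 is an activating receptor of myeloid and B cells) or a rat IgG2a isotype control. CD45+ cells were enriched on magnetic beads, each mouse was marked with a hashtag antibody, and the mice of a pool shared a 10x Chromium lane, so a pool's mice share their library. The sample labels read as if the host were B2m-deficient. The series' design text instead places the loss of B2m in the implanted cells, and that reading was used. Whether either B16 line came from 1 clone, and the age of the mice, were not given in the sources used here. Each hashtag was taken as 1 mouse. This gave 5 mice with control tumours and isotype in 2 pools, 2 with control tumours and anti-CD40 in 1 pool that was run on 2 technical lanes, 5 with B2m-null tumours and isotype in 2 pools, and 4 with B2m-null tumours and anti-CD40 in 2 pools.

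Glycolysis splits glucose into pyruvate, and cells that turn pyruvate into lactate can run it without oxygen. When oxygen falls, the prolyl hydroxylases encoded by Egln1 and Egln3 no longer mark HIF-1 alpha for degradation, and the HIF complex binds the core letters ACGTG or GCGTG in promoters and enhancers of its targets. Macrophages and T cells also raise glycolysis on activation, so the same enzymes move with oxygen and with activation.

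The promoters of the members were rich in the HIF core. The set was named for known functions and includes HIF targets, so this excess is not independent of how it was chosen. Of the 33 members, 30 had an entry in the RefSeq promoter table (build GRCm38.p6), and Slc2a3, Bnip3l and Ndrg1 had none. The core was searched as ACGTG and GCGTG on both strands (CACGT and CACGC on the reverse) in the 300 bases from 250 before to 50 after each listed start site. CACGTG holds the first form on both strands. At least 1 core stood in a window of 28 of the 30 members (93.3%, all but Tpi1 and Gpi1), against 46.7% of 27025 genes in the table. At least 2 cores stood in 23 members (76.7%), against 22.9% of genes. ACGTG was found in 73.3% of members and 21.8% of genes, and GCGTG in 70% and 35.2%. The windows of the members were also richer in G and C (median 64.7%, against 52.7%), and a match here is a run of letters, not a measured binding site. The 250 bases before the start site are shown for 6 members on which the results below turn, with the cores in capitals, 5′ to 3′ on the strand of the gene. Where the table lists several start sites for a gene, the window with the most cores was taken.
Ldha, chr7:46845554-46845803, plus strand, 5 cores: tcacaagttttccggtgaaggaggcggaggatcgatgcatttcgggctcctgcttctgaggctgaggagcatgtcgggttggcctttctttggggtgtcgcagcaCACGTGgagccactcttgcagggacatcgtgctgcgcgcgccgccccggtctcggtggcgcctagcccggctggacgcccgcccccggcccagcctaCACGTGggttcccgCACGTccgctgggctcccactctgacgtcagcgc
Bnip3, chr7:138909507-138909756, minus strand, 5 cores: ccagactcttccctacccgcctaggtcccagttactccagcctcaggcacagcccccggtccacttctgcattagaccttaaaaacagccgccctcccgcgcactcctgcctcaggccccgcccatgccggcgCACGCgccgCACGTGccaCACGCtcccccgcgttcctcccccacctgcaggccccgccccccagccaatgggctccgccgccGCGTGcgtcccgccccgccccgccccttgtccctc
Hilpda, chr6:29272376-29272625, plus strand, 3 cores: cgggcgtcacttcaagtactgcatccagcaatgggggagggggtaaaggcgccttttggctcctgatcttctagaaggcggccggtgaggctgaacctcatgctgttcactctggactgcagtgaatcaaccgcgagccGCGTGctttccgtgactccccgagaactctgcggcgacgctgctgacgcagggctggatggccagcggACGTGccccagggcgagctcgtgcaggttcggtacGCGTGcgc
Gapdh, chr6:125165774-125166023, minus strand, 2 cores: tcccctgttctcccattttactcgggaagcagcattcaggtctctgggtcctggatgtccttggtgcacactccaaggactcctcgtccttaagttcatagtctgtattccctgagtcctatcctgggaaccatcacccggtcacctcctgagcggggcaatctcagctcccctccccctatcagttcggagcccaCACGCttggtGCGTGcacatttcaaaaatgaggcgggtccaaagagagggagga
Slc2a1, chr4:119108495-119108744, plus strand, 2 cores: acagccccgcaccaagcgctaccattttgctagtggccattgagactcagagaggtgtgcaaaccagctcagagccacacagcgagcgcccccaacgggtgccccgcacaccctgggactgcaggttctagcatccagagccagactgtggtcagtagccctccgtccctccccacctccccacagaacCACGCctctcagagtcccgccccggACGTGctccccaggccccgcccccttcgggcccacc
Ddit4, chr10:59951771-59952020, minus strand, 2 cores: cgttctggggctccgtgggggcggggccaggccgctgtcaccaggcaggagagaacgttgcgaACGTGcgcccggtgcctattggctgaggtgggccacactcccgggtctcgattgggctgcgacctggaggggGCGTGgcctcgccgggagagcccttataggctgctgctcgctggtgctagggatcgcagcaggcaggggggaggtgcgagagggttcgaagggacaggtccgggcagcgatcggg

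The 8 lanes held 116552 cell barcodes and 46.0 to 99.3 M UMIs each (M, 1000000), with a median of 1715 to 4225 UMIs per barcode. Any pair of lanes shared 41 to 92 barcodes. Hashtags placed 73241 cells that passed the filters with a mouse. Cells were assigned to classes by marker genes that hold no member, and a class named here is "like" that cell type only by those markers. The 3 classes tested were macrophage-like (25662 cells assigned to mice), monocyte-like (5213) and CD8 T-like cells (10700). Macrophage markers summed to 75.0 to 114 UMIs per 10,000 in macrophage-like cells and 7.61 to 14.3 in monocyte-like cells, whose own markers summed to 61.8 to 85.1. B2m in melanoma-like cells was 995, 1591 and 2013 CPM (UMIs of the gene per 1000000 UMIs) in the control pools and 192 to 451 in the B2m-null pools, which did not overlap. Depth differed between groups. In control tumours with anti-CD40, 67.7% of monocyte-like and 51.6% of CD8 T-like cells had under 2000 UMIs, against 42.1% and 20.3% with isotype. In B2m-null tumours the shares were 27.6% and 37.7% with anti-CD40 and 54.0% and 29.4% with isotype.

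The summed level of the 33 members differed widely between cell classes. It is given as UMIs of the members per 10,000 UMIs, as the median over mice with at least 20 cells of the class. Melanoma-like cells were highest, at 155 (130 to 184, 8 mice), followed by cells between the monocyte and macrophage gates at 131 (80.8 to 172). Neutrophil-like cells were at 114 (57.1 to 143, 10 mice) and macrophage-like cells at 87.3 (61.5 to 109, 16 mice). Monocyte-like cells stood at 76.3 (54.2 to 112), regulatory T-like cells at 77.3, CD4 T-like cells at 73.1 and CD8 T-like cells at 69.2 (41.0 to 84.7, 15 mice). Conventional dendritic cells of the first kind (cDC1) were at 50.4, mature dendritic cells at 49.9, natural killer cells at 45.0, plasmacytoid dendritic cells at 40.5 and B cells at 32.1. The ranges over mice of neighbouring classes overlapped, the mice with enough cells differed between classes, and the order is a description.

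Among 12 immune classes, leaving out the cells between the monocyte and macrophage gates, neutrophil-like cells held the highest median for 17 of the 33 members, macrophage-like cells for 7 and regulatory T-like cells for 4. These neutrophil levels rest on 465 cells with a class median of 912 UMIs per cell. The medians of the classes are over different mice. Neutrophil-like cells had 10 mice, 4 of them B2m-null with anti-CD40, and macrophage-like cells had 16. Regulatory T-like cells had 8 mice, none of them control with anti-CD40. Some leads were small, as in Pgam1 (927 CPM in neutrophil-like and 903 in macrophage-like cells). Hilpda, which inhibits lipolysis and favours lipid droplets, was at a median of 1091 CPM in neutrophil-like cells and 229 in macrophage-like cells. Egln3 was at 316 in neutrophil-like and 47.1 in monocyte-like cells. Slc2a1, the GLUT1 glucose transporter, was at 262 in neutrophil-like and 112 in monocyte-like cells. Macrophage-like cells led for Aldoa, Tpi1, Gapdh, Pgk1, Pdk1, Adm and P4ha2, and regulatory T-like cells for Hk1, Ldha, Higd1a and Ddit4. Pfkp, the platelet form of phosphofructokinase, was at 714 CPM in cDC1-like cells (409 to 987) against 430 in the next class, cDC2. Pfkfb3, which makes the activator of phosphofructokinase, was at 256 in mature dendritic cells against 107 in neutrophil-like cells. Slc2a3, the GLUT3 transporter, was at 94.3 in neutrophil-like cells, from 66 UMIs in all, and at 79.4 in CD8 T-like cells and 3.37 in macrophage-like cells. For every member the range of the highest class overlapped that of the next one. The cells between the gates, a mixed class with no name of its own, had a median above the highest of these 12 classes for 19 of the 33 members. They held Aldoa at 966 CPM against 745 in macrophage-like cells, Pgk1 at 1263 against 896, Mif at 1357 against 1106 in neutrophil-like cells and Pkm at 1297 against 1121.

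**Figure D1:**
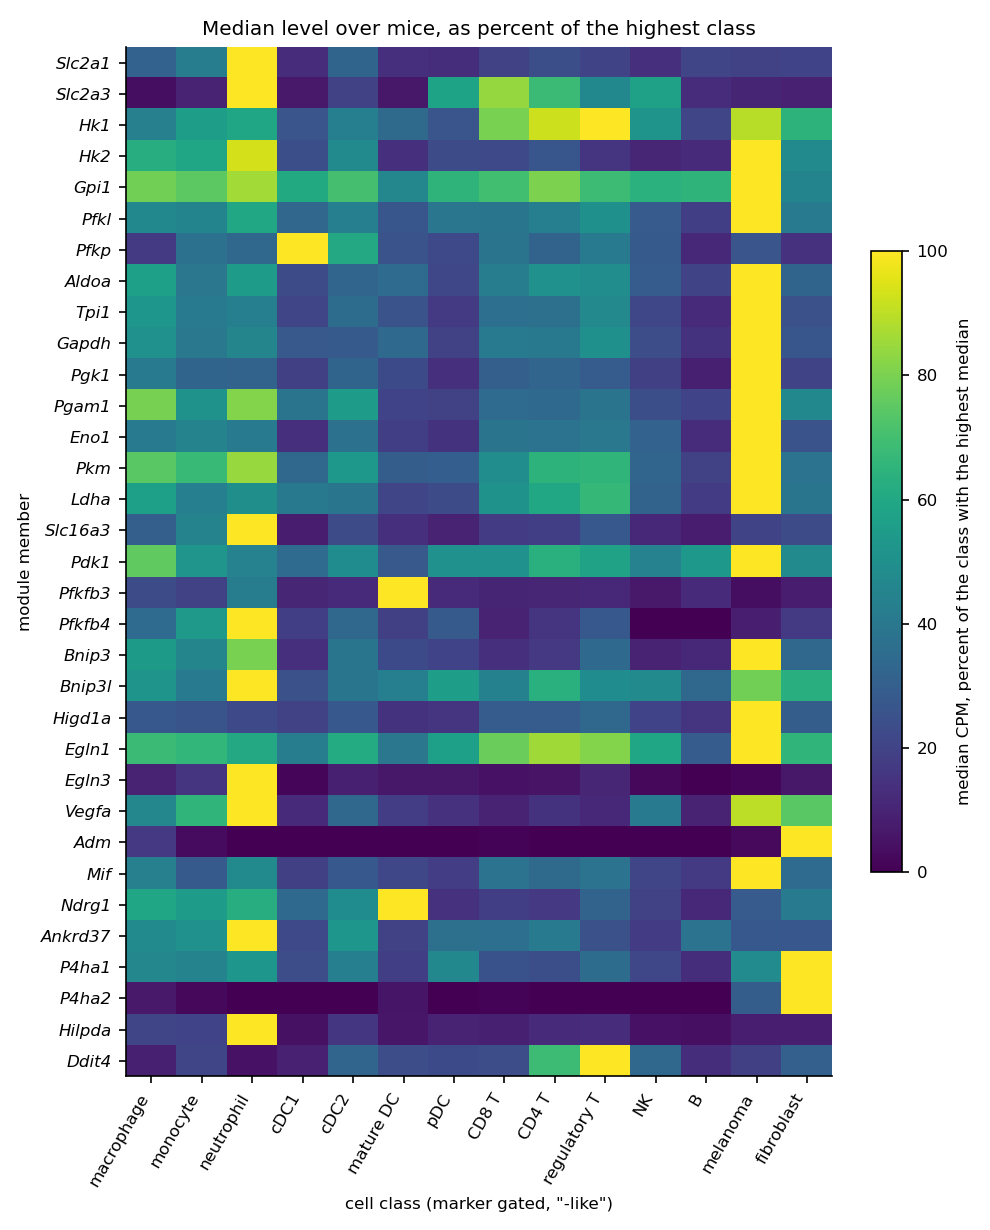
Median level of each member (rows) in each cell class (columns), as percent of the class with the highest median CPM, over mice with at least 20 cells of the class. Melanoma and fibroblast columns are included; cells between the monocyte and macrophage gates are not drawn. Among the 12 immune classes drawn, neutrophil-like cells hold the highest median for 17 of 33 members, Pfkp peaks in cDC1 and Pfkfb3 in mature dendritic cells. The mice with enough cells differ between classes.

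CD8 T-like cells carried less of most members than macrophage-like cells of the same mice, and more of 4. Per gene and mouse, UMIs were summed within a class and tested with edgeR's quasi-likelihood test, called at a Benjamini-Hochberg adjusted p under 0.05 over all genes tested, with the mouse as a block. In CD8 T-like against macrophage-like cells (15 mice) 28 of 33 members were lower and 4 higher, where 80.8% of all genes were called (40.5% higher, 40.2% lower), and the median log2 change of members was -0.86 against 0.01 for all genes. Slc2a3 was higher by 4.28 ± 0.15 (log2, SE, edgeR adjusted p = 2.64e-16), and Ddit4, an inhibitor of mTORC1, by 1.61 ± 0.15. Pfkp (0.84) and Hk1 (0.55), a hexokinase, were the others that were higher. The largest deficits were in Adm (adrenomedullin, -3.23 ± 0.30), P4ha2 (a collagen prolyl hydroxylase, -3.07 ± 0.26), the mitophagy receptor gene Bnip3 (-2.36 ± 0.12) and Vegfa (-2.28 ± 0.16). Pgam1 (-1.48 ± 0.09), Hilpda (-1.60 ± 0.12), P4ha1 (-1.15 ± 0.08) and Ndrg1 (-2.05 ± 0.15) were also lower, and Egln1 alone was not called (0.01 ± 0.05).

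Monocyte-like against macrophage-like cells (16 mice) showed a mixed pattern: 9 of 31 members tested were higher and 12 lower, a share near the 69.3% called among all genes (35.1% higher, 34.1% lower). Slc2a3 and Adm were too low to be tested. Pfkp was higher in monocyte-like cells by 1.16 ± 0.07 on the log2 scale (edgeR adjusted p = 3.19e-13), Ddit4 by 1.58 ± 0.19 and the lactate exporter Slc16a3 by 0.69 ± 0.06. P4ha2 (-1.72 ± 0.21), Pdk1, a kinase that inhibits pyruvate dehydrogenase (-0.65 ± 0.08), the cytokine gene Mif (-0.62 ± 0.07) and Pgam1 (-0.56 ± 0.06) were lower. Pfkfb4 (0.72 ± 0.12), Egln3 (0.58 ± 0.10) and Hk1 (0.41 ± 0.07) were higher as well, and Aldoa (-0.52 ± 0.07) and Ldha (-0.39 ± 0.05) lower.

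The summed level was higher with anti-CD40 in macrophage-like and monocyte-like cells of B2m-null tumours and not in those of control tumours. In monocyte-like cells of B2m-null tumours it was 90.1 to 112 per 10,000 in the 4 anti-CD40 mice (median 98.0) and 55.2 to 78.6 in the 5 isotype mice (median 63.6). These ranges did not overlap. In control tumours it was 54.2 and 65.1 in the anti-CD40 mice and 61.3 to 98.1 under isotype (median 74.5), so that 1 anti-CD40 mouse lay below every isotype mouse. In macrophage-like cells of B2m-null tumours it was 99.0 to 109 with anti-CD40 and 61.5 to 95.6 with isotype. In control tumours it was 80.9 in each anti-CD40 mouse, inside the isotype range of 70.9 to 106. CD8 T-like cells of control tumours held 41.0 and 57.3 with anti-CD40 and 68.6 to 82.0 with isotype, with no overlap. In B2m-null tumours they held 53.6 to 84.7 with anti-CD40 and 54.6 to 72.5 with isotype, which overlapped. The ratio of the anti-CD40 to the isotype mean was 1.503 in monocyte-like cells of B2m-null and 0.774 in those of control tumours. It was 1.29 and 0.893 in macrophage-like cells, and 1.02 and 0.674 in CD8 T-like cells. Cells between the monocyte and macrophage gates were at 131 to 172 with anti-CD40 and 80.8 to 144 with isotype in B2m-null tumours, and at 104 and 107 against 93.4 to 140 in control tumours. These ranges overlapped. Neutrophil-like cells of B2m-null tumours were at 112 to 140 with anti-CD40 and at 101 and 142.5 with isotype, which overlapped. Natural killer cells of B2m-null tumours were at 45.0 to 75.0 with anti-CD40 and 35.4 to 53.0 with isotype, and cDC2-like cells of control tumours at 77.6 and 82.3 against 57.2 to 79.6. Both of these pairs of ranges overlapped as well.

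**Figure D2:**
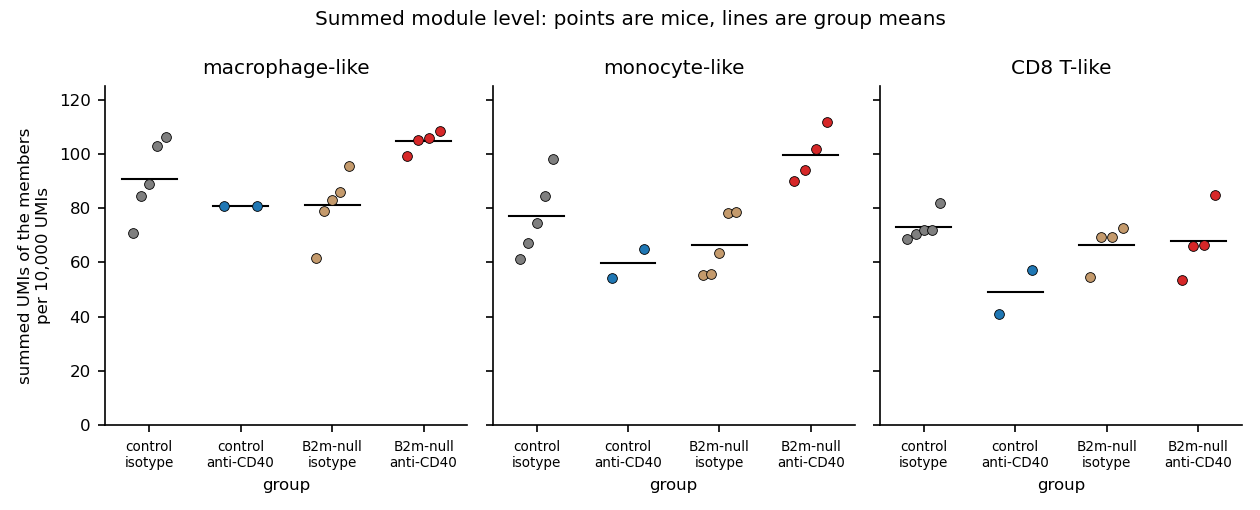
Summed UMIs of the members per 10,000 UMIs (vertical axis) by group, in macrophage-like, monocyte-like and CD8 T-like cells; points are mice and lines are group means. B2m-null anti-CD40 monocyte-like cells lie at 90.1 to 112, above all 5 B2m-null isotype mice, and the 2 control anti-CD40 mice lie below the isotype mice in CD8 T-like cells.

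In macrophage-like cells of B2m-null tumours, anti-CD40 raised 10 of the 12 glycolytic enzymes. Of the 33 members 18 rose and 2 fell, where 39.7% of all genes were called (19.6% up, 20% down). The median log2 change was 0.40 for the members and -0.02 for all genes. Besides the enzymes, Slc2a1, Ldha (lactate dehydrogenase A), Slc16a3, Pfkfb3, Higd1a, Adm, Mif and Hilpda rose. Slc2a3 and Pfkfb4 fell. Aldoa, the aldolase of the middle of the pathway, was at 642, 370, 572, 602 and 840 CPM in the isotype mice and at 864, 1022, 1127 and 1113 in the anti-CD40 mice. Every anti-CD40 mouse lay above every isotype mouse, and the edgeR change was 0.97 ± 0.19 (adjusted p = 0.000858). Slc2a1 was at 58.4, 38.4, 70.0, 80.0 and 93.2 CPM with isotype and 95.8, 107, 129 and 133 with anti-CD40, again without overlap (0.95 ± 0.21, adjusted p = 0.0019). Mif, a secreted cytokine, was at 604 to 1023 CPM with isotype and at 1224 to 1395 with anti-CD40 (0.79 ± 0.13, edgeR adjusted p = 0.000164). Hk1 rose by 0.70 ± 0.12, Tpi1 (triosephosphate isomerase) by 0.69 ± 0.14, Higd1a, a mitochondrial protein of hypoxia, by 0.57 ± 0.10 and Pfkp by 0.53 ± 0.10. Slc2a3 fell by 0.87 ± 0.24 on the log2 scale (edgeR adjusted p = 0.0084), from 4.31 to 10.0 CPM with isotype to 2.04 to 2.90. Pfkfb4 fell by 0.56 ± 0.15, from 12.1 to 14.6 CPM to 5.17 to 9.77.

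Among the oxygen sensors neither Egln1 nor Egln3 was called, and among the 6 other HIF targets Hilpda was (0.62 ± 0.18, edgeR adjusted p = 0.0112). Of the members that did not pass the test, Bnip3 changed by 0.08 ± 0.16, Egln3 by 0.05 ± 0.17, Vegfa by 0.24 ± 0.12 and Ndrg1 by 0.13 ± 0.16 (edgeR, log2). Without B2m-null isotype pool 1 or B2m-null anti-CD40 pool 2 the count of 20 called members was 10, and with pools in place of mice it was 13. Pool sums, here and below, also took in cells not assigned to a mouse. In Nos2-negative cells thinned to 2000 UMIs, with shallower cells left out, it was 13, against 17 in all cells thinned alike. Markers of other cells moved with the treatment in these macrophage-like cells, with no overlap. T cell markers summed to 0.486 to 0.734 per 10,000 with anti-CD40 and 0.149 to 0.303 with isotype, and melanoma markers to 0.152 to 0.254 and 0.354 to 0.628. Their part in the result was not tested.

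In macrophage-like cells of control tumours the enzymes did not pass the test and 4 other members rose. Of 33 members, 5 were called, a share below the 22.9% of all genes (11.8% up, 11.1% down), and the median log2 change was -0.10 against -0.02 for all genes. None of the 12 glycolytic enzymes was called, and Aldoa changed by 0.01 ± 0.24. The 4 that rose were Higd1a, Adm, Vegfa and Mif, of which the last 3 are secreted. Adm was at 5.09, 6.32, 8.59, 6.90 and 3.59 CPM with isotype and at 11.8 and 12.7 with anti-CD40, so both anti-CD40 mice were above all isotype mice (1.11 ± 0.31, edgeR adjusted p = 0.0152). Vegfa was at 68.7, 62.4, 91.2, 67.8 and 70.8 with isotype and at 94.5 and 91.4 with anti-CD40 (0.50 ± 0.14, edgeR adjusted p = 0.0172). One isotype mouse nearly reached the anti-CD40 values. Higd1a rose by 0.44 ± 0.12 and Mif by 0.45 ± 0.16. Ddit4 fell by 1.80 ± 0.46 on the log2 scale (edgeR adjusted p = 0.00934), from 3.06, 2.83, 5.70, 13.0 and 6.97 CPM with isotype to 0.966 and 2.12 with anti-CD40. The count of 5 rests on few mice. It was 0 without control anti-CD40 mouse 2, 2 without mouse 1 or without control isotype pool 2, and 3 without control isotype pool 1. It was 3 with pools in place of mice (1 higher, 2 lower), and 2 after thinning to 2000 UMIs. Thinning also left out the cells with under 2000 UMIs, 29.9% of control anti-CD40 and 15.4% of control isotype macrophage-like cells. Without cycling cells the count was 3, of which 1 was higher. In Nos2-negative cells thinned to 2000 UMIs no member rose and 3 fell, 1 of them among the original 5. The control anti-CD40 mice had 11.0% and 15.8% cycling macrophage-like cells against 19.0% to 38.1% with isotype, and a median of 2673 and 3849 UMIs against 3820 to 6503. T cell markers summed to 0.782 and 1.38 per 10,000 against 0.230 to 0.458, neutrophil markers to 0.515 and 0.690 against 0.243 to 0.416, and monocyte markers to 2.73 and 3.24 against 5.2 to 11.0. The part of these markers was not tested.

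The anti-CD40 changes of 12 members in macrophage-like cells differed between the genotypes by the test of the difference itself. For 11 the difference (B2m-null minus control) was positive and for Slc2a3 it was negative (-1.11 ± 0.36). Of all genes 21.2% were called (10.9% positive, 10.3% negative). Slc2a3 fell in B2m-null tumours and Ddit4 in control tumours, so the sign is not the size of a change. The largest positive differences were in Ddit4 (1.84 ± 0.57, edgeR adjusted p = 0.0301), Slc2a1 (1.39 ± 0.34, adjusted p = 0.00967) and Aldoa (0.96 ± 0.32, adjusted p = 0.0385). Pfkp had the smallest p (0.80 ± 0.15, edgeR adjusted p = 0.00252). Ldha (0.83 ± 0.22), Tpi1 (0.82 ± 0.23), Eno1 (0.88 ± 0.25) and Pkm (0.87 ± 0.25) also differed. The test uses the same mice as the comparisons within each genotype, and the control arm is 1 pool. With pools as the unit 0 of the 12 were called. The count was 6 without control isotype pool 2, 3 without B2m-null isotype pool 1, 4 without B2m-null anti-CD40 pool 2, and 1 and 2 without control anti-CD40 mouse 1 and mouse 2.

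The count of members called between tumour genotypes in macrophage-like cells was 2 under each treatment, and it moved with the processing. At an unadjusted edgeR p under 0.05 there were 10 of 33 under isotype and 14 of 33 under anti-CD40. The median log2 difference (B2m-null minus control) of members was -0.14 under isotype, with 9 of 33 positive, against -0.003 for all genes. Under anti-CD40 it was 0.19, with 24 of 33 positive, against -0.03 for all genes. Under isotype, Hk1 (-0.42 ± 0.12, edgeR adjusted p = 0.024) and Pfkp (-0.61 ± 0.09, adjusted p = 0.000844) were lower in B2m-null tumours, 2 of 33 where 15.4% of all genes were called (6.51% higher, 8.86% lower). The count was 1 without either control isotype pool or without B2m-null isotype pool 1, and 9, all lower and both genes among them, without B2m-null isotype pool 2. It was 4 with DESeq2, 6 with the replicate block and 1 with pools as the unit. Under anti-CD40, Slc2a1 (0.90 ± 0.28, edgeR adjusted p = 0.0445) and Ddit4 (1.63 ± 0.48, adjusted p = 0.0346) were higher in B2m-null tumours, where 11.7% of all genes were called (5.27% higher, 6.44% lower). Neither was called without control anti-CD40 mouse 1, without mouse 2 or without B2m-null anti-CD40 pool 2, and in the last case 1 other member was called lower. With pools as the unit 0 were called, and 1 in thinned cells, with the stricter gate or without cycling cells. DESeq2 called 7, the 5% limit on mitochondrial counts gave 6 and no filter on low counts gave 5, all higher. The anti-CD40 groups of the genotypes also stood apart, with no overlap, in melanoma markers (0.152 to 0.254 per 10,000 in B2m-null against 0.412 and 0.450 in control tumours) and T cell markers (0.486 to 0.734 against 0.782 and 1.38). The same held for cycling cells (21.4% to 31.7% against 11.0% and 15.8%) and mitochondrial counts (5.28% to 5.52% against 4.33% and 4.63%). The part of the melanoma and T cell markers was not tested.

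**Figure D3:**
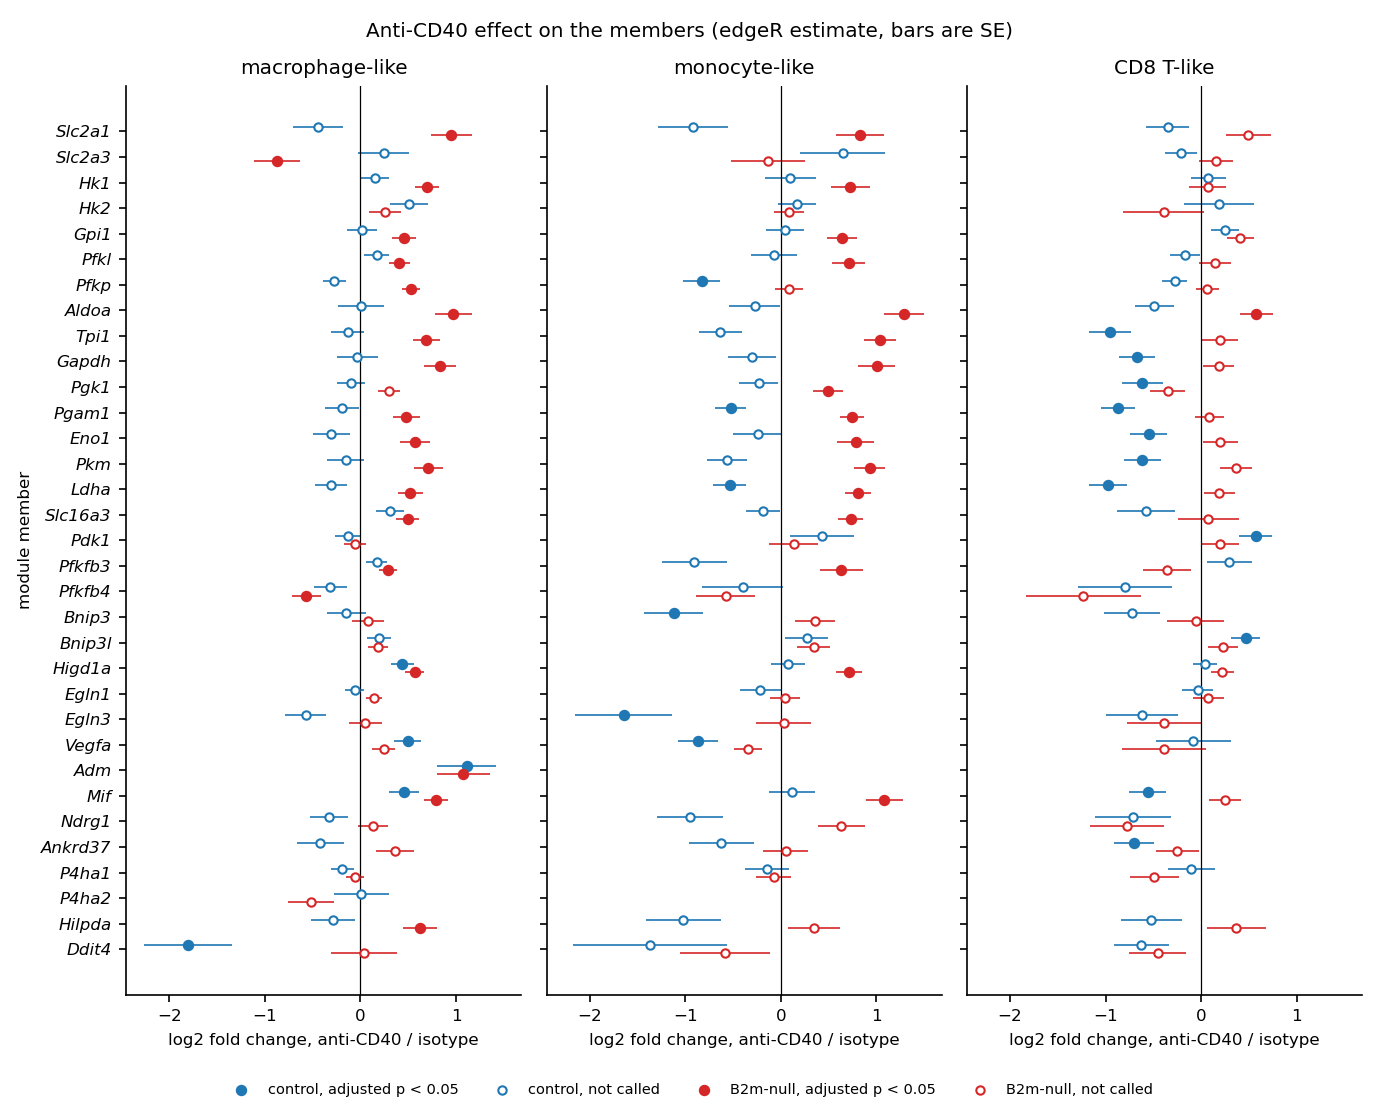
Log2 fold change of anti-CD40 over isotype for each member (rows) in macrophage-like, monocyte-like and CD8 T-like cells, in control (blue) and B2m-null (red) tumours; bars are SE and filled points passed an edgeR adjusted p of 0.05. In B2m-null tumours 18 members rose in macrophage-like and 16 in monocyte-like cells, while 6 fell in monocyte-like and 9 in CD8 T-like cells of control tumours.

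Monocyte-like cells of B2m-null tumours also had more of the glycolytic enzymes with anti-CD40, and no member was called lower. Of 31 members tested 16 rose, where 24.8% of all genes were called (13.2% up, 11.5% down), with a median log2 change of 0.63 for members and -0.03 for all genes. Adm and P4ha2 were too low to be tested. The 16 were Slc2a1, 10 of 12 glycolytic enzymes, Ldha, Slc16a3, Pfkfb3, Higd1a and Mif. Aldoa was at 319, 253, 328, 538 and 551 CPM with isotype and at 819, 1002, 883 and 797 with anti-CD40. The anti-CD40 mice were all above the isotype mice, by 1.29 ± 0.21 on the log2 scale (edgeR adjusted p = 0.000141). Tpi1 was at 238, 280, 331, 403 and 455 with isotype and at 681, 725, 583 and 540 with anti-CD40 (1.04 ± 0.17, edgeR adjusted p = 0.000154). Ldha, which makes lactate, was at 507, 471, 554, 637 and 660 with isotype and at 980, 887, 871 and 774 with anti-CD40 (0.81 ± 0.13, edgeR adjusted p = 0.000171). None of these groups overlapped. Pgam1 rose by 0.75 ± 0.12, Pkm (pyruvate kinase) by 0.93 ± 0.16 and Mif by 1.08 ± 0.19.

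Depth and dissociation stress genes differed between these libraries. The median UMIs per monocyte-like cell were 1262 to 1497 in B2m-null isotype pool 1, 3758 and 3795 in pool 2, 2408 and 2916 in B2m-null anti-CD40 pool 1, and 4315 and 4487 in pool 2. Aldoa was 538 and 551 CPM in the isotype pool of 3758 and 3795 UMIs and 819 and 1002 in the anti-CD40 pool of 2408 and 2916. Within isotype, Aldoa was lower in the shallower pool. In cells thinned to 2000 UMIs 12 members rose. Genes of dissociation stress summed to 42.0 to 52.2 per 10,000 with anti-CD40 and 59.2 to 71.6 with isotype. Neutrophil markers summed to 0.805 to 1.53 with anti-CD40 and 0.470 to 0.738 with isotype, macrophage markers to 10.4 to 11.0 and 11.9 to 14.3, and melanoma markers to 0.0114 to 0.109 and 0.183 to 0.361. None of these ranges overlapped, and their part in the result was not tested. The count was 10 with pools as the unit and 9 without B2m-null isotype pool 1.

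In monocyte-like cells of control tumours 6 members fell with anti-CD40 and none rose, where 15.3% of all genes were called (8.29% up, 6.99% down). The median log2 change was -0.30 for members and 0.01 for all genes. Those that fell were Pfkp, Pgam1, Ldha, Bnip3, Egln3 and Vegfa. Egln3 was at 35.9, 30.4, 62.7, 88.3 and 47.3 CPM with isotype and at 24.0 and 11.9 with anti-CD40, below every isotype mouse (-1.64 ± 0.51, edgeR adjusted p = 0.0319). Bnip3 was at 132, 105, 192, 236 and 124.7 with isotype and at 100 and 49.2 with anti-CD40 (-1.12 ± 0.31, edgeR adjusted p = 0.0171). Ldha was at 702, 560, 749, 839 and 708 with isotype and at 548 and 426 with anti-CD40 (-0.53 ± 0.17, edgeR adjusted p = 0.0402). In all 3 genes both anti-CD40 mice were lowest. Vegfa (-0.87 ± 0.21), Pfkp (-0.83 ± 0.19) and Pgam1 (-0.52 ± 0.16) made up the rest. These cells had a median of 1330 and 1352 UMIs against 2068 to 2872 with isotype, and T cell markers at 3.23 and 3.71 per 10,000 against 0.819 to 1.68. Macrophage markers were at 7.61 and 8.06 against 11.1 to 12.8, neutrophil markers at 0.700 and 0.894 against 0.379 to 0.661, and dissociation stress genes at 52.2 and 57.3 against 58.4 to 66.0. Their own monocyte markers were at 61.8 and 66.8 against 71.3 to 85.1, and fibroblast markers at 0.109 and 0.2235 against 0.04775 to 0.0945. The part of these markers was not tested. The count of 6 was 0 without control anti-CD40 mouse 2, 3 without control isotype pool 2, 1 with pools as the unit and 1 in cells thinned to 2000 UMIs. Thinning also left out cells with under 2000 UMIs, 67.7% of control anti-CD40 and 42.1% of control isotype monocyte-like cells.

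**Figure D4:**
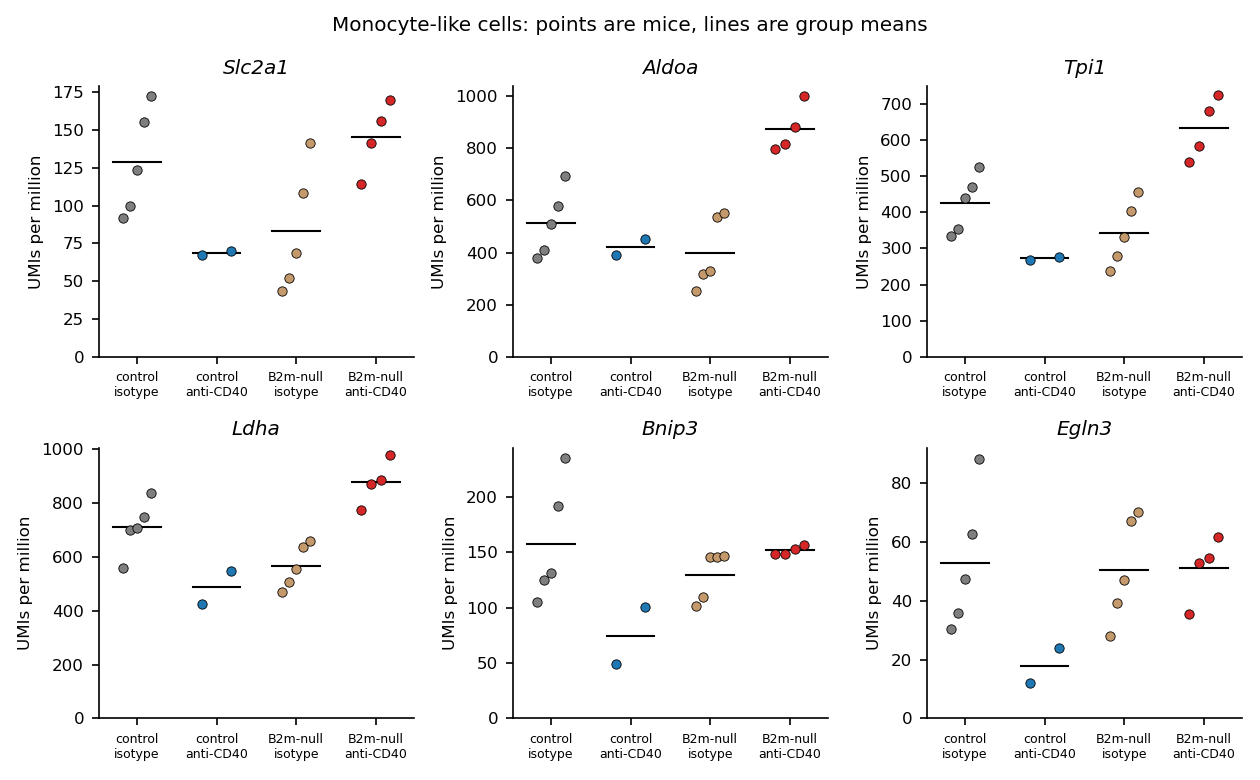
CPM (vertical axis) of 6 members in monocyte-like cells by group; points are mice and lines are group means. Aldoa, Tpi1 and Ldha of all B2m-null anti-CD40 mice lie above the B2m-null isotype mice, and Bnip3 and Egln3 of both control anti-CD40 mice lie below the control isotype mice.

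The difference between genotypes (B2m-null minus control) was called for 16 of 31 members in monocyte-like cells, all positive. Of all genes 19.7% were called (10.3% in that direction, 9.37% in the other). A fall in control tumours, as in Bnip3 and Pfkp, also makes this difference positive. Tpi1 differed by 1.67 ± 0.28 (edgeR adjusted p = 0.000371), Aldoa by 1.56 ± 0.34 (adjusted p = 0.00322), Ldha by 1.34 ± 0.22 (adjusted p = 0.00026) and Pgam1 by 1.27 ± 0.21 (adjusted p = 0.00025). Pkm (1.49 ± 0.26) and Slc16a3 (0.92 ± 0.22) were also among the 6 smallest p. The set included the oxygen-responsive members Bnip3 (1.48 ± 0.38), Ndrg1 (1.59 ± 0.42) and Hilpda (1.37 ± 0.48), which passed the test in this contrast although none was called in B2m-null tumours alone. The count was 4 with pools as the unit, 5 in thinned cells and 5 without control anti-CD40 mouse 2. Under anti-CD40, 16 members were higher in B2m-null than in control tumours, where 17.6% of all genes were called (8.61% higher, 9.02% lower). Pgam1 (1.07 ± 0.17, edgeR adjusted p = 0.00025), Tpi1 (1.33 ± 0.24), Ldha (0.97 ± 0.18), Pkm (1.15 ± 0.22), Slc16a3 (0.94 ± 0.18) and Aldoa (1.17 ± 0.28) had the smallest p. The count was 10 without control anti-CD40 mouse 1, 3 without mouse 2, 7 with pools as the unit and 6 in thinned cells. The anti-CD40 groups of the genotypes did not overlap in depth (2408 to 4487 UMIs in B2m-null against 1330 and 1352 in control tumours), T cell markers (0.410 to 1.12 per 10,000 against 3.23 and 3.71) or melanoma markers (0.0114 to 0.109 against 0.298 and 0.327). Nor did they in macrophage markers (10.4 to 11.0 against 7.61 and 8.06) or monocyte markers (70.6 to 76.3 against 61.8 and 66.8). Cycling cells were also apart (3.21% to 4.94% against 2.04% and 2.825%). The part of these markers and of cycling was not tested. Under isotype edgeR called 0 of 31 members between genotypes, where 2.96% of all genes were called (0.777% higher, 2.18% lower). At an unadjusted p under 0.05 there were 5, and DESeq2 called 1. Without B2m-null isotype pool 2 edgeR called 8.

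In CD8 T-like cells of control tumours 9 of 31 members tested fell with anti-CD40 and 2 rose (Adm and P4ha2 were not tested). As a share called this is near the 35.7% of all genes (17.9% up, 17.8% down). Of the 12 glycolytic enzymes 6 fell, and the median log2 change was -0.52 for members and -0.01 for all genes. Ldha was at 1011, 1092, 1212, 943 and 1008 CPM with isotype and at 615 and 417 with anti-CD40 (-0.97 ± 0.20, edgeR adjusted p = 0.00096). Tpi1 was at 390, 372, 529, 410 and 442 with isotype and at 265 and 162 with anti-CD40 (-0.96 ± 0.22, edgeR adjusted p = 0.0025). Both anti-CD40 mice were below every isotype mouse in each gene. Pgam1 (-0.87 ± 0.18), Gapdh (-0.67 ± 0.19), Ankrd37 (-0.70 ± 0.21), Pkm (-0.62 ± 0.19), Pgk1, Mif and Eno1 fell as well. Pdk1 rose by 0.57 ± 0.17 and Bnip3l, a mitophagy receptor, by 0.47 ± 0.15. In the same mice 11.8% and 20.5% of these cells were cycling by their markers, against 39.2% to 56.9% with isotype, and the median depth was 1906 and 2195 UMIs against 3506 to 4888. Dissociation stress genes summed to 20.3 and 21.1 per 10,000 against 13.1 to 16.6, and melanoma markers to 0.233 and 0.237 against 0.0828 to 0.143. Neutrophil markers were at 0.147 and 0.190 against 0.0286 to 0.116, T cell markers at 36.8 and 39.99 against 28.2 to 35.1, and mitochondrial counts at 4.45% and 4.50% against 4.75% to 5.73%. The part of the markers and stress genes was not tested. Without cycling cells 8 members were called, all lower, and 6 of the 11 calls were kept. The count of 11 was 6 in thinned cells, 2 with pools as the unit and 3 without control isotype pool 1, all of them lower. It was 1, a rise, without control anti-CD40 mouse 2. Neither Pdk1 nor Bnip3l was called in thinned cells, without cycling cells, with pools as the unit, without control isotype pool 1 or without control anti-CD40 mouse 1.

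In B2m-null tumours 1 member was called in CD8 T-like cells. It was Aldoa, at 343, 507, 585 and 559 CPM with isotype and 541, 806, 622 and 758 with anti-CD40, which overlapped (0.58 ± 0.18, edgeR adjusted p = 0.0459). In that comparison 9.12% of all genes were called (5.31% up, 3.81% down), and DESeq2 called 2 members. The call was lost with RLE scaling, with the 5% limit on mitochondrial counts, with pools as the unit, and without B2m-null isotype pool 1 or B2m-null anti-CD40 pool 2, and 5 members were called without B2m-null anti-CD40 pool 1, 2 higher and 3 lower. In thinned cells another member was called in its place. The B2m-null anti-CD40 pools differed: 50% and 53.3% of CD8 T-like cells were cycling in pool 1, and 13.6% and 19.8% in pool 2. With isotype it was 31.9% to 47.7% in the mice of these fits. The summed level was 66.4 and 84.7 per 10,000 in anti-CD40 pool 1, and 53.6 and 66.1 in pool 2. Without cycling cells Aldoa was still called, and no other member. T cell markers summed to 33.8 to 56.0 per 10,000 with anti-CD40 and 22.2 to 28.0 with isotype, and melanoma markers to 0.0452 to 0.109 and 0.112 to 0.596, whose part was not tested. One B2m-null isotype mouse had 17 CD8 T-like cells and was left out of these fits. Where 8.97% of all genes were called (5.56% positive, 3.4% negative, B2m-null minus control), the anti-CD40 change differed between genotypes for 6 of 31 members. They were Ldha (1.16 ± 0.25, edgeR adjusted p = 0.00866), Pgam1, Tpi1, Aldoa, Pkm and Gapdh, all positive. None was called without control isotype pool 1, without control anti-CD40 mouse 2 or with pools as the unit, 3 were called without B2m-null isotype pool 1, and 10 without B2m-null anti-CD40 pool 2. Under anti-CD40, Pgam1, Aldoa, Pkm, Tpi1, Gapdh and Slc2a1 were higher in B2m-null tumours by 0.68 to 0.85 on the log2 scale, where 8.74% of all genes were called (5.09% higher, 3.65% lower). That count of 6 was 0 without control anti-CD40 mouse 2, 1 without mouse 1, 3 without B2m-null anti-CD40 pool 1, 14 without B2m-null anti-CD40 pool 2 and 0 with pools as the unit. It was 1 in thinned cells, 3 with the 5% limit on mitochondrial counts and 11 with no filter on low counts. These anti-CD40 groups stood apart, with no overlap, in depth (2490 to 3182 UMIs in B2m-null against 1906 and 2195 in control tumours) and mitochondrial counts (4.93% to 5.57% against 4.45% and 4.50%). They also did in melanoma markers (0.0452 to 0.109 per 10,000 against 0.233 and 0.237) and dissociation stress genes (13.8 to 18.4 against 20.3 and 21.1), whose part was not tested. Under isotype edgeR and DESeq2 called 0 members between genotypes, where 0.378% of all genes were called (0.155% higher, 0.223% lower). At an unadjusted p under 0.05 there were 4, and 1 was called without B2m-null isotype pool 2.

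Macrophage-like cells with Arg1 or Nos2 carried more of nearly every member. Arg1 (arginase) and Nos2 (inducible nitric oxide synthase) are not members, and both use arginine. Cells with under 2000 UMIs were left out. Each remaining cell was thinned to 2000 UMIs and called positive with at least 1 UMI. For comparison, 6390 CD8 T-like cells of all groups together, most of them from anti-CD40 mice, were thinned the same way from a median of 3774 UMIs. Of these 3.15% held an Arg1 and 2.02% a Nos2 UMI, whose source was not tested. Of 20956 macrophage-like cells, with a median of 6376 UMIs, 23.3% held Arg1 and 8.44% held Nos2. Arg1-positive cells made up 12.0% to 37.9% of a mouse's macrophage-like cells. Nos2-positive cells made up 0.617% to 3.43% in B2m-null isotype mice, around the share in CD8 T-like cells, and 9.43% to 22.03% in B2m-null anti-CD40 mice. They made up 2.06% to 6.79% with isotype and 12.4% and 16.2% with anti-CD40 in control tumours.

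Within the same mice, Arg1-positive cells had 29 of 30 tested members higher and none lower (16 mice), where 29.2% of all genes were called (15.7% higher), with a median of 0.79 for members and -0.01 for all genes. Slc2a3, Adm and Ddit4 were too low to be tested, and Pfkfb4 was not called (0.05 ± 0.14). Egln3 was at 43.8 to 111 CPM (median 88.8) in positive and 9.75 to 35.1 (median 16.2) in negative cells, which did not overlap, and was higher in 16 of 16 mice (2.39 ± 0.10, edgeR adjusted p = 2.14e-23). Vegfa was at 123 to 255 (median 162) and 31.5 to 81.7 (median 51.3), and Hilpda at 278 to 592 (median 438) and 75.2 to 226 (median 148). Their changes were 1.74 ± 0.10 and 1.56 ± 0.07, and neither pair of ranges overlapped. Ndrg1 (1.39 ± 0.06), Bnip3 (1.39 ± 0.06) and Pgk1 (0.98 ± 0.04) were also among the 6 smallest p, with Ldha (0.74 ± 0.04). The changes of the enzymes ran from 0.44 ± 0.06 in Pfkp to 0.98 in Pgk1.

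Nos2-positive cells had 29 of 31 members higher and none lower (13 mice), where 22% of all genes were called (11.7% higher), with a median of 0.93 for members and -0.03 for all genes. Slc2a3 and Ddit4 were not tested, and Pdk1 (0.16 ± 0.13) and Pfkfb4 (-0.12 ± 0.30) were not called. Ndrg1, a stress-induced gene, was at 217 to 923 CPM (median 546) in positive and 78.0 to 184 (median 119) in negative cells, with no overlap (2.00 ± 0.08, edgeR adjusted p = 1.06e-48). Adm was at 12.7 to 42.4 (median 20) and 1.84 to 13.4 (median 7.01), and was higher in 13 of 13 mice (2.08 ± 0.21). Hilpda (1.66 ± 0.06), Bnip3 (1.43 ± 0.07), Vegfa (1.80 ± 0.09), Slc2a1 (1.59 ± 0.09) and Egln3 (2.04 ± 0.12) were among the smallest p. Cycling cells made up 21.1% of Arg1-positive and 33.0% of Arg1-negative cells, and 20.3% of Nos2-positive and 31.2% of Nos2-negative cells. T cell markers summed to 0.786 per 10,000 in Nos2-positive and 0.576 in Nos2-negative cells, and to 0.485 in Arg1-positive and 0.625 in Arg1-negative cells. Melanoma markers were at 0.330 and 0.360 for Nos2 and 0.370 and 0.354 for Arg1. The part of these differences was not tested.

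The summed level was lowest in cells with neither gene and highest in cells with both. It was 72.0 per 10,000 in cells with neither (48.2 to 89.4, 16 mice) and 121 in those with Arg1 only (93.8 to 141, 16 mice). It was 144 in those with Nos2 only (110 to 161, 9 mice) and 173 in those with both (129 to 210, 9 mice). The mice with enough cells differ between these 4 parts. In cells with neither gene, the B2m-null anti-CD40 mice (79.3 to 83.1) were above the B2m-null isotype mice (48.2 to 77.2). The control anti-CD40 mice were at 63.0 and 67.7, inside the isotype range of 55.7 to 89.4. With Nos2 only they were at 110 and 114, below the 3 control isotype mice with enough cells (148 to 161). With both genes they were at 129 and 135, below 2 control isotype mice (173 and 210). The B2m-null anti-CD40 mice with both genes were at 160 to 175.5, below the 1 isotype mouse with enough cells (188). With Arg1 only, the anti-CD40 and isotype ranges overlapped in both genotypes.

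**Figure D5:**
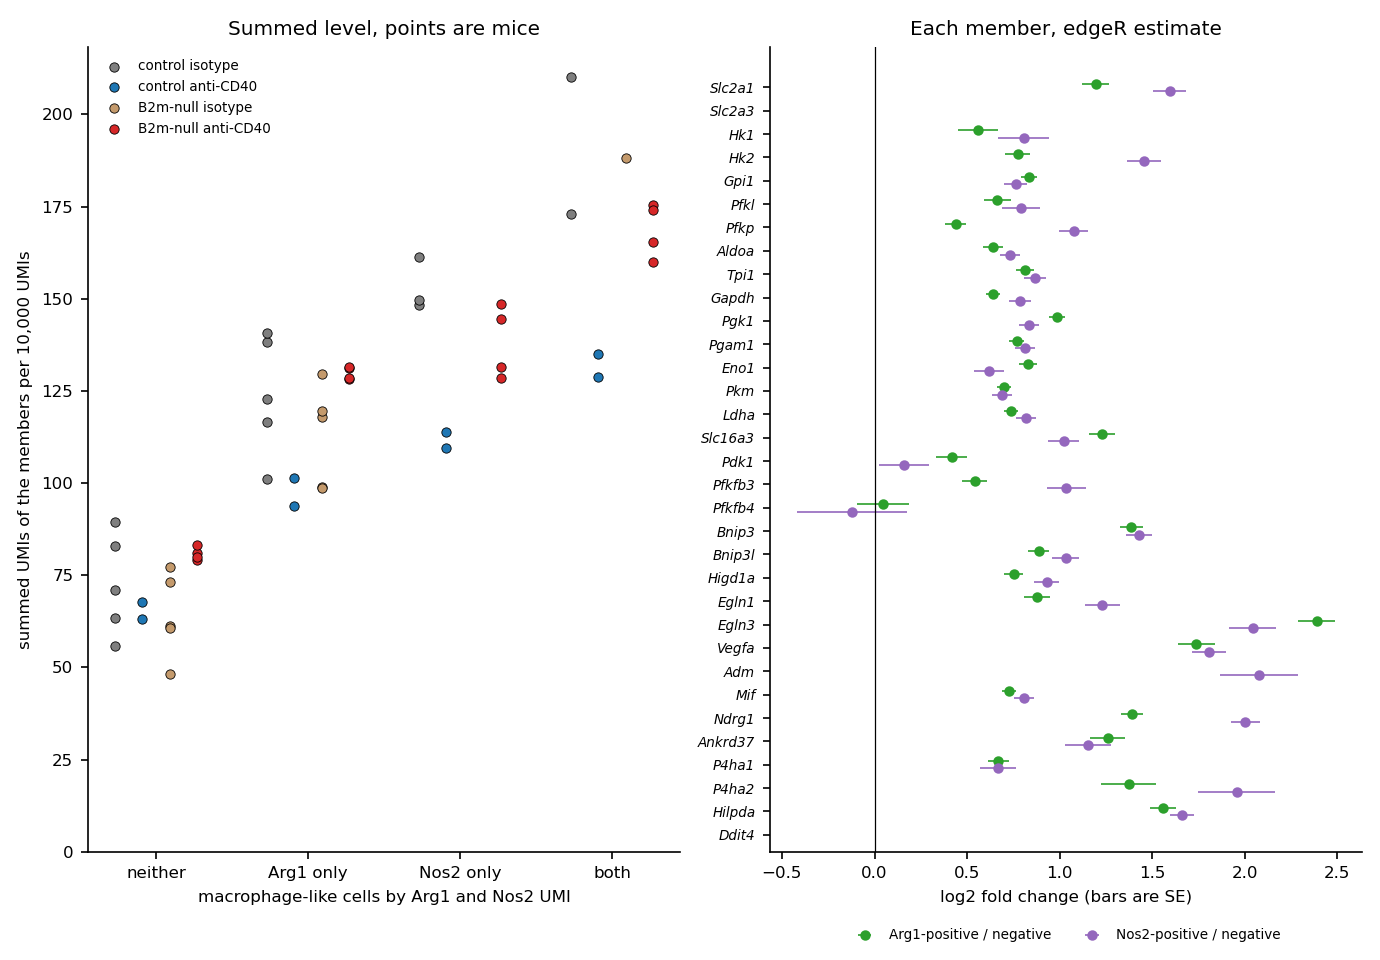
Left, summed UMIs of the members per 10,000 UMIs (vertical axis) in macrophage-like cells with neither, 1 or both of Arg1 and Nos2, points are mice coloured by group; right, edgeR log2 fold change of each member in positive over negative cells, bars are SE. Cells with neither gene have a median of 72.0 and cells with both 173, and all points at the right except Pfkfb4 with Nos2 lie above 0.

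Of 58 other genes of the pathway that were listed beside the members, up to 52 were tested in a class. The share called in either direction under treatment was near or below that of all genes. Calls in macrophage-like cells, and in monocyte-like cells of B2m-null tumours, were mostly rises. In macrophage-like cells of B2m-null tumours 13 of 52 tested rose with anti-CD40 and 5 fell (34.6% called, against 39.7% of all genes, 19.6% up and 20% down). Slc2a6, a transporter of the glucose family, rose by 1.68 ± 0.25, Pgf, a relative of Vegfa, by 1.16 ± 0.23 and Bsg, the chaperone of lactate transporters, by 0.62 ± 0.10. Epas1, which encodes HIF-2 alpha (-1.75 ± 0.47), the collagen lysyl hydroxylase gene Plod2 (-1.48 ± 0.40) and the transferrin receptor gene Tfrc (-1.37 ± 0.18) fell. In control tumours 9 of 52 rose and 0 fell (17.3%, against 22.9% of all genes, 11.8% up and 11.1% down). Among the 9 were Hif1a (0.90 ± 0.20), Eno2 (1.77 ± 0.48) and Slc2a6 (1.02 ± 0.27). The difference of the anti-CD40 change (B2m-null minus control) was negative for Hif1a (-0.79 ± 0.26, edgeR adjusted p = 0.0395), Pfkm (-1.07 ± 0.36) and Tfrc (-1.28 ± 0.28). It was positive for Pgf (1.89 ± 0.39), Gys1 (0.56 ± 0.16) and Fam162a (0.45 ± 0.15). Thus 3 of 52 were called in each direction (11.5%, against 21.2% of all genes). In monocyte-like cells of B2m-null tumours 9 of 39 rose and Txnip, which restrains glucose uptake, fell (-0.59 ± 0.16). This was 25.6% called, against 24.8% of all genes (13.2% up, 11.5% down). In those of control tumours Tfrc rose (1.14 ± 0.36) and Mpc1, a subunit of the mitochondrial pyruvate carrier, fell (-0.48 ± 0.16), 5.13% called against 15.3%. In CD8 T-like cells of control tumours 5 of 46 rose and 7 fell (26.1%, against 35.7%), and Txnip rose by 1.31 ± 0.23. In Arg1-positive macrophage-like cells 22 of 36 were higher and 2 lower (66.7%, against 29.2% of all genes), with Ero1l, an oxidase of the endoplasmic reticulum, at 1.40 ± 0.06 and Hif1a at 0.67 ± 0.05. In Nos2-positive cells 21 of 37 were higher and 2 lower (62.2%, against 22%), with Ero1l at 1.80 ± 0.07 and Hif1a at 0.90 ± 0.07.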

How the data were processed

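Single-cell RNA was measured by 10x Genomics 3' v3 chemistry with hashtag antibodies in 8 lanes. The authors deposited raw UMI counts per gene and barcode, made with Cell Ranger 3.0.0 (and bcl2fastq 2.20.0.422, genome mm10), per the submitters' processing notes. Rows of hashtag counts were used only to assign mice: of 116552 barcodes, 6940 (5.95%) were called doublets from hashtags and 23731 (20.4%) were not assigned. Doublets of cells from 1 mouse were not removed. Cells with under 200 genes or over 10% mitochondrial counts were dropped. Classes were gated on marker UMIs per 10,000, and 8.39% of macrophage-like, 8.17% of monocyte-like and 1.76% of CD8 T-like cells lay near a gate. Counts were summed per mouse and class (at least 20 cells) and tested in Python 3.11.15 and R 4.3.3 with edgeR 4.0.16 (TMM, filterByExpr, quasi-likelihood, Benjamini-Hochberg over all genes tested), with all 4 groups of a class in 1 fit and the mouse as a block between classes or states. Levels are UMIs of a gene per 1000000 UMIs of a mouse's cells of a class (CPM). A hashtag was taken as a mouse, so p-values measure spread between mice, and mice of a pool share a library.

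Members and lists were chosen with earlier results of these data known. Named were the members with an edgeR adjusted p under 0.05 (where more than 10, about 6 of the smallest p in each direction), and others with their values where a result turned on them. Alternatives were RLE scaling, DESeq2 1.42.0, no filter on low counts, a limit of 5% mitochondrial counts and a stricter gate. Others were thinning to 2000 UMIs, pools as the unit, the replicate block and leaving out each pool or control anti-CD40 mouse. Thinning left out cells with fewer than 2000 UMIs, so it changed both the depth and the cells compared. Pool sums also held cells not assigned to a mouse, so pools as the unit changed both the unit and the cells. They held 30624 macrophage-like, 8394 monocyte-like and 12776 CD8 T-like cells, against 25662, 5213 and 10700 assigned to mice. Cycling cells removed and Nos2-negative cells only were added after seeing the data, as were all alternatives for the difference between genotypes. On simulated counts for the B2m-null anti-CD40 comparison, edgeR recovered 86.6% of 2-fold changes in macrophage-like cells (11766 genes), 69.1% in monocyte-like cells (8621 genes) and 49.5% in CD8 T-like cells (10317 genes). Of 1.5-fold changes it recovered 56.8%, 26.0% and 13.0% in the same order. The simulation changed 200 genes per class and drew mice independently, with no pool effect. In the data far more genes were called and mice shared pools, so these shares need not hold there. Comparisons with control anti-CD40 were not simulated.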

Additional observations from a re-analysis of the deposited data

Results flagged for a closer look

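The anti-CD40 change differed between B2m-null and control tumours by edgeR's test of the difference (log2, B2m-null minus control). In macrophage-like cells 12 members passed it: Slc2a1 1.39, Slc2a3 -1.11, Pfkp 0.80, Aldoa 0.96, Tpi1 0.82, Gapdh 0.86, Pgam1 0.67, Eno1 0.88, Pkm 0.87, Ldha 0.83, Hilpda 0.91 and Ddit4 1.84. In monocyte-like cells 16 did: Slc2a1 1.75, Pfkp 0.92, Aldoa 1.56, Tpi1 1.67, Gapdh 1.30, Pgam1 1.27, Eno1 1.02, Pkm 1.49, Ldha 1.34, Slc16a3 0.92, Pfkfb3 1.53, Bnip3 1.48, Higd1a 0.64, Mif 0.97, Ndrg1 1.59 and Hilpda 1.37. In CD8 T-like cells 6 did: Aldoa 1.07, Tpi1 1.16, Gapdh 0.85, Pgam1 0.96, Pkm 0.98 and Ldha 1.16.

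One mouse stood far from its group. In CD8 T-like cells of control isotype mice the highest summed level was 82 per 10,000, and the next was 71.96. Of 57 groups of values examined this way, chance sets about 1 in 20 apart.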

How the results depend on the processing

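Counts of called members moved by more than 1.5 times under some alternatives, and the cause was not tested. With pools as the unit, the sums also held cells not assigned to a mouse. This setting leaves control anti-CD40 with 1 sample assumed to vary like the other groups, and the counts were as follows. In macrophage-like cells the anti-CD40 counts were 3 (control, from 5) and 13 (B2m-null, from 20), the genotype counts 1 (isotype, from 2) and 0 (anti-CD40, from 2), and the difference 0 (from 12). In monocyte-like cells they were 1 (control, from 6), 10 (B2m-null, from 16), 7 (genotype under anti-CD40, from 16) and 4 (difference, from 16). In CD8 T-like cells they were 2 (control, from 11), 0 (B2m-null, from 1), 0 (genotype under anti-CD40, from 6) and 0 (difference, from 6). Thinning to 2000 UMIs gave 2 (macrophage control), 1 (macrophage genotype under anti-CD40), 1 (monocyte control), 6 (monocyte genotype under anti-CD40), 5 (monocyte difference), 6 (CD8 control) and 1 (CD8 genotype under anti-CD40). No filter gave 5 (macrophage genotype under anti-CD40), 13 (monocyte control), 6 (monocyte genotype under isotype, from 0), 2 (CD8 B2m-null), 2 (CD8 genotype under isotype, from 0) and 11 (CD8 genotype under anti-CD40). DESeq2 gave 4 and 7 (macrophage genotype under isotype and anti-CD40), 1 (monocyte genotype under isotype) and 2 (CD8 B2m-null). The 5% mitochondrial limit gave 6 (macrophage genotype under anti-CD40), 0 (CD8 B2m-null), 3 (CD8 genotype under anti-CD40) and 2 (CD8 difference). The stricter gate gave 1 (macrophage genotype under anti-CD40) and 2 (CD8 B2m-null), and RLE scaling gave 0 (CD8 B2m-null). Without cycling cells the macrophage counts were 3 (control), 1 (genotype under isotype) and 1 (genotype under anti-CD40), and in Nos2-negative cells thinned to 2000 UMIs, which changes both choices, 3 (control), 13 (B2m-null) and 1 (genotype under anti-CD40). Thinning alone gave 2, 17 and 1.

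Leaving out 1 pool or control anti-CD40 mouse gave, in macrophage-like cells, 0 to 3 (control), 10 to 19 (B2m-null), 1 to 9 and 0 to 2 (genotype under isotype and anti-CD40) and 1 to 14 (difference). It gave, in monocyte-like cells, 0 to 8, 9 to 17, 0 to 8, 3 to 12 and 5 to 20 in the same order, and in CD8 T-like cells 1 to 12, 0 to 5, 0 to 1, 0 to 14 and 0 to 10. Between monocyte-like and macrophage-like cells it gave 19 to 23, between CD8 T-like and macrophage-like cells 31 to 32, and for Arg1 29 to 30 and Nos2 29 to 29. With the replicate block the counts were 6 (macrophage genotype under isotype) and 2 (CD8 B2m-null), and the other 4 counts it was run on (anti-CD40 in B2m-null tumours in macrophage-like and monocyte-like cells, genotype under isotype in monocyte-like and CD8 T-like cells) moved by less than 1.5 times. It was not run on comparisons with control anti-CD40, which has 1 replicate number. The difference between pools 1 and 2 of a group correlated over genes with that of another group at -0.0755 to 0.178. Between B2m-null isotype and B2m-null anti-CD40 the values were 0.146 (macrophage-like), 0.178 (monocyte-like) and 0.115 (CD8 T-like). The replicate number was left out of the main fits. Without Gapdh, Eno1, Aldoa, Ldha and Pkm the summed ratio in CD8 T-like cells of B2m-null tumours reversed, from 1.02 to 0.947. Of 230 single-member results 99 lost their call under at least 1 alternative, 452 times in all, and none reversed.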
